A study of Arabidopsis thaliana with 20 samples.

Results

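The later part of the first day of light, from 12 h (W12 h) to 24 h (W24 h) of white light, was compared in de-etiolating *Arabidopsis* seedlings to ask which small RNAs kept changing, levelled off or turned back after the first 12 h. The members were the 207 miRNAs and 58 phasiRNAs of the deposited table, 265 of its 4520 rows. They were read in the 3 W12 h and 3 W24 h libraries of the 18 sRNA libraries, each W24 h library against the W12 h library of the same replicate number. The remaining 4255 rows are other siRNAs and were left out, since their W24 h values in replicates 2 and 3 are not comparable. The 207 miRNAs carry 155 distinct mature sequences and the 58 phasiRNAs 46, so several names share 1 sequence and are no independent measurements.

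All libraries were made from wild-type Col-0, a standard laboratory accession. Seeds were stratified and given a light pulse to synchronize germination, and seedlings were kept in darkness for 4 d at 22 °C and then given continuous white light at the labelled intensity of 100 mE for 12 h (W12 h, n = 3) or 24 h (W24 h, n = 3), and seedlings kept dark (W0 h, n = 3) were the reference of the first 12 h. Each library held RNA pooled from the aerial tissue of many seedlings, so fewer cells of a type and less RNA per cell cannot be told apart. TruSeq was the library kit of replicates 1 and 2, whereas Small RNA v1.5 was that of replicate 3, so the kit and replicate 3 cannot be told apart either. The libraries had 17579785 to 18822788 mapped reads at W12 h and 17887523 to 21516866 at W24 h. The values are RPM, mapped reads scaled to the library's total of 20–24 nt reads, on which 1 read was worth 0.0561 to 0.0745 RPM. Levels of the 207 miRNAs on the log2 scale correlated at 0.994 (W12 h) and 0.991 (W24 h) for replicate 1 with 2, and at 0.688 and 0.679 for replicate 1 with 3 (Pearson). These are correlations across miRNAs, which are not independent replicates.

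A miRNA is cut from a hairpin precursor by DICER-LIKE1 (DCL1), and 1 strand, the guide, is loaded into ARGONAUTE1 (AGO1) and directs cleavage of mRNAs that match it, while the opposite strand, the star, is mostly degraded. Some miRNAs cut noncoding *TAS* transcripts or mRNAs of pentatricopeptide repeat (PPR) proteins, whose fragments are copied into double-stranded RNA and diced in register into phasiRNAs. Light sets off de-etiolation, in which the hypocotyl stops elongating, the cotyledons open and chloroplasts form. Many miRNA families repress transcription factors that time such growth steps, and others report the supply of copper, sulfate or phosphate.

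The mature sequences of the miRNAs that the results turn on are shown first, 5′ to 3′, with the seed (bases 2 to 8) in capitals. They were taken from the supplementary tables of the study and were all found in the RefSeq TAIR10 genome. The seed of miR157a-5p is that of miR156a-5p shifted by 1 base. The miR157a-5p seed is shared by 3 rows of the table (with miR157b-5p and miR157c-5p) and the miR156a-5p seed by 11, among them miR157d.
miR156a-5p: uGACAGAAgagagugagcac
miR157a-5p: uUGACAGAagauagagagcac
miR157c-3p: gCUCUCUAuacuucugucacc
miR159a: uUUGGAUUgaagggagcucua
miR162a-3p: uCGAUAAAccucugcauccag
miR163: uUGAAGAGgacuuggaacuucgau
miR168a-5p: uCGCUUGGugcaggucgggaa
miR396a-3p: gUUCAAUAaagcugugggaag
miR398b-3p: uGUGUUCUcaggucaccccug
miR398b-5p: aGGGUUGAuaugagaacacac
miR408-3p: aUGCACUGccucuucccuggc
miR833a-5p: uGUUUGUUguacucggucuagu
miR5642b: uCUCGCGCuuguacggcuuu

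No miRNA passed the threshold between W12 h and W24 h. With limma on log2 of RPM plus 0.1 and the replicate as a block, 0 of 207 miRNAs (0%) had an adjusted p-value under 0.05 in either direction, and the lowest adjusted p-value was 0.112. At an unadjusted p under 0.05, 12 were higher (5.8%) and 6 lower (2.9%), and these 18 names (8.7%) were 13 sequences. On reads recovered from the RPM values, edgeR called 0 and DESeq2 called 3. The p-values measure the spread between these samples. For 120 of the 207 miRNAs (58%) the 95% interval of the change lay within 2-fold in both directions, and for the other miRNAs it reached past 2-fold in at least 1 direction.

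The replicates did not move alike. The log2 change had a median of -0.12 over the 207 miRNAs, made up of -0.18, -0.24 and 0.12 in the single replicates. Replicates 1, 2 and 3 had 140, 138 and 73 miRNAs lower at W24 h. The same direction in all 3 replicates was found for 25 higher miRNAs (12.1%) and 38 lower ones (18.4%), while 144 (69.6%) were mixed, 70 of them lower in replicates 1 and 2 but higher in replicate 3. The summed miRNA values made up 27.2%, 30.7% and 50.9% of the 20–24 nt reads at W12 h and 24.5%, 23.7% and 54.5% at W24 h, in replicates 1, 2 and 3 (exact sign-flip permutation test, 2-sided p = 0.75, n = 3 pairs, smallest possible p 0.25). Rescaling each library to a median log2 miRNA ratio of 0 against W0 h moved the median change from -0.12 to -0.06 and gave 0 calls as well.

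**Figure D1:**
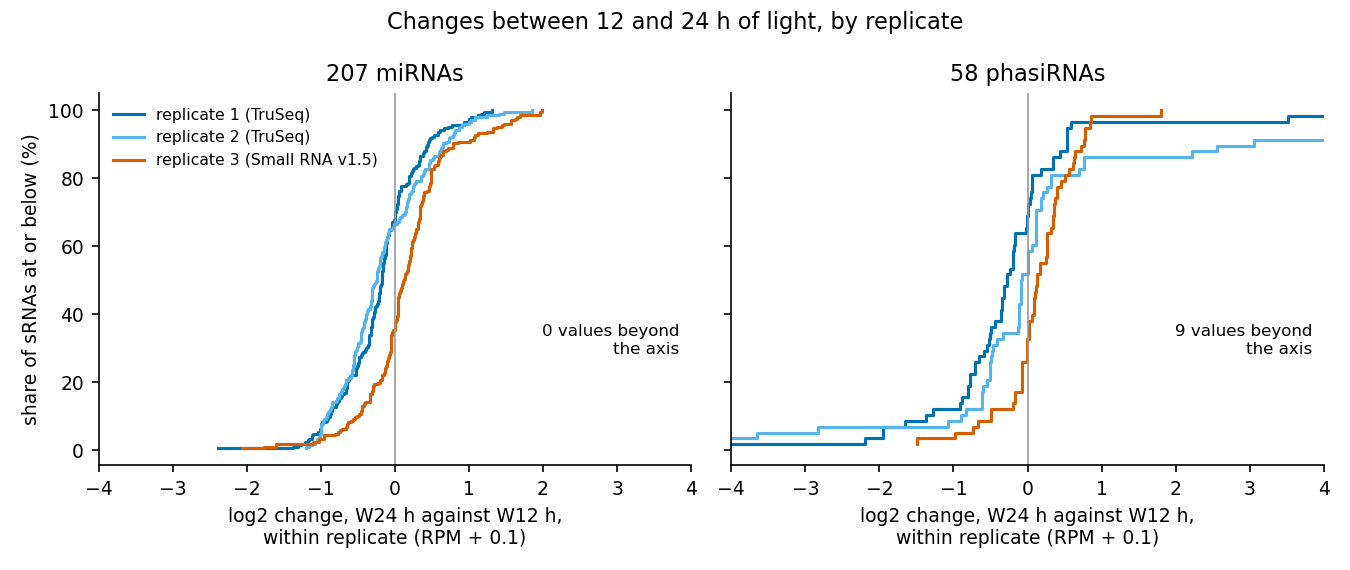
Cumulative share of the 207 miRNAs (left) and 58 phasiRNAs (right) by their log2 change from W12 h to W24 h within each replicate, 1 line per replicate. For miRNAs the line of replicate 3 lies to the right of the other lines over most of its course, with a median of 0.12 against -0.18 and -0.24, and some phasiRNA values lie beyond the axis.

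Among the miRNAs with the lowest unadjusted p, the miR157 guides were higher at W24 h in every replicate. miR157 and miR156 repress *SQUAMOSA PROMOTER BINDING PROTEIN-LIKE* (*SPL*) mRNAs, which promote the change from juvenile to adult growth. miR157a-5p, with the same values as miR157b-5p, was at 102, 114 and 12832 RPM at W12 h and at 194, 241 and 19280 RPM at W24 h in replicates 1, 2 and 3. Each W24 h value was above its W12 h partner, although replicate 3 lay far above the others at both times. The log2 change was 0.86 ± 0.24 (SE, n = 3; adjusted p = 0.112, limma). miR157c-5p, which has the same mature sequence but is listed with other values, had a log2 change of 0.76 ± 0.23 (adjusted p = 0.153, limma). The miR157c-3p star strand (chr3:6244527-6244547, minus strand, *MIR157c*) was at 4.65, 2.92 and 0.97 RPM at W12 h and at 7.15, 5.22 and 3.20 RPM at W24 h, a log2 change of 1.02 with a 95% interval of 0.29 to 1.75 (adjusted p = 0.3, limma).

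miR159a, which represses *GAMYB*-like *MYB* mRNAs, was also higher in all 3 replicates. Its level (chr1:27713234-27713254, minus strand, *MIR159a*) went from 4239, 4505 and 132 RPM at W12 h to 8639, 9202 and 191 RPM at W24 h. The log2 change was 0.86 with an interval of 0.22 to 1.51 (adjusted p = 0.330, limma). At W0 h it had been at 9556, 6768 and 103 RPM, so in replicates 1 and 2 the W12 h values were below the values on both sides, which was not so in replicate 3. miR833a-5p, whose 22 nt match chr1:29525204-29525225 where *MIR833a* and *MIR833b* are both annotated, had the lowest unadjusted p (0.0016). It was at 0.36, 0.27 and 0.43 RPM at W12 h and at 1.04, 1.23 and 1.01 RPM at W24 h, with no overlap between the groups. The log2 change was 1.41 ± 0.39 (adjusted p = 0.112, limma), from values worth only a few reads at W12 h. The fifth by p-value among the higher ones, the miR167c-3p star strand, was at 0.30 to 1.70 RPM at W12 h and 1.01 to 2.88 RPM at W24 h (log2 change 0.79, adjusted p = 0.440, limma).

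The lower miRNAs with the lowest p were miR5642b, miR162a-3p with miR162b-3p, miR169a-3p and miR398b-3p with miR398c-3p. miR162 represses *DCL1* itself. miR162a-3p was at 265, 305 and 85.4 RPM at W12 h and at 145, 210.2 and 43.9 RPM at W24 h, lower in each replicate, with a log2 change of -0.79 and an interval of -1.44 to -0.13 (adjusted p = 0.440, limma). miR398b-3p, which represses copper/zinc superoxide dismutase mRNAs, was at 917 and 674 RPM at W12 h and 457 and 401 RPM at W24 h in replicates 1 and 2. In replicate 3 it was at 0.12 and 0.06 RPM, which is 2 reads and 1 read, so replicate 3 carries almost no measurement of it (log2 change -0.74, adjusted p = 0.505, limma). miR169a-3p, a star strand of the family that represses NF-YA subunit mRNAs, went from 22.5, 18.1 and 15.5 RPM to 11.3, 12.3 and 14.1 RPM (log2 change -0.56, adjusted p = 0.505, limma). miR5642b went from 35.1, 26.5 and 1.85 RPM to 13.4, 15.4 and 1.01 RPM (log2 change -0.99 ± 0.28, adjusted p = 0.112, limma). miR5642a has the same mature sequence but was listed at 205, 159.8 and 1.85 RPM at W12 h and 194, 210.4 and 1.07 RPM at W24 h. Since 1 sequence was listed with different values, neither name can be assigned a change of its own.

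**Figure D2:**
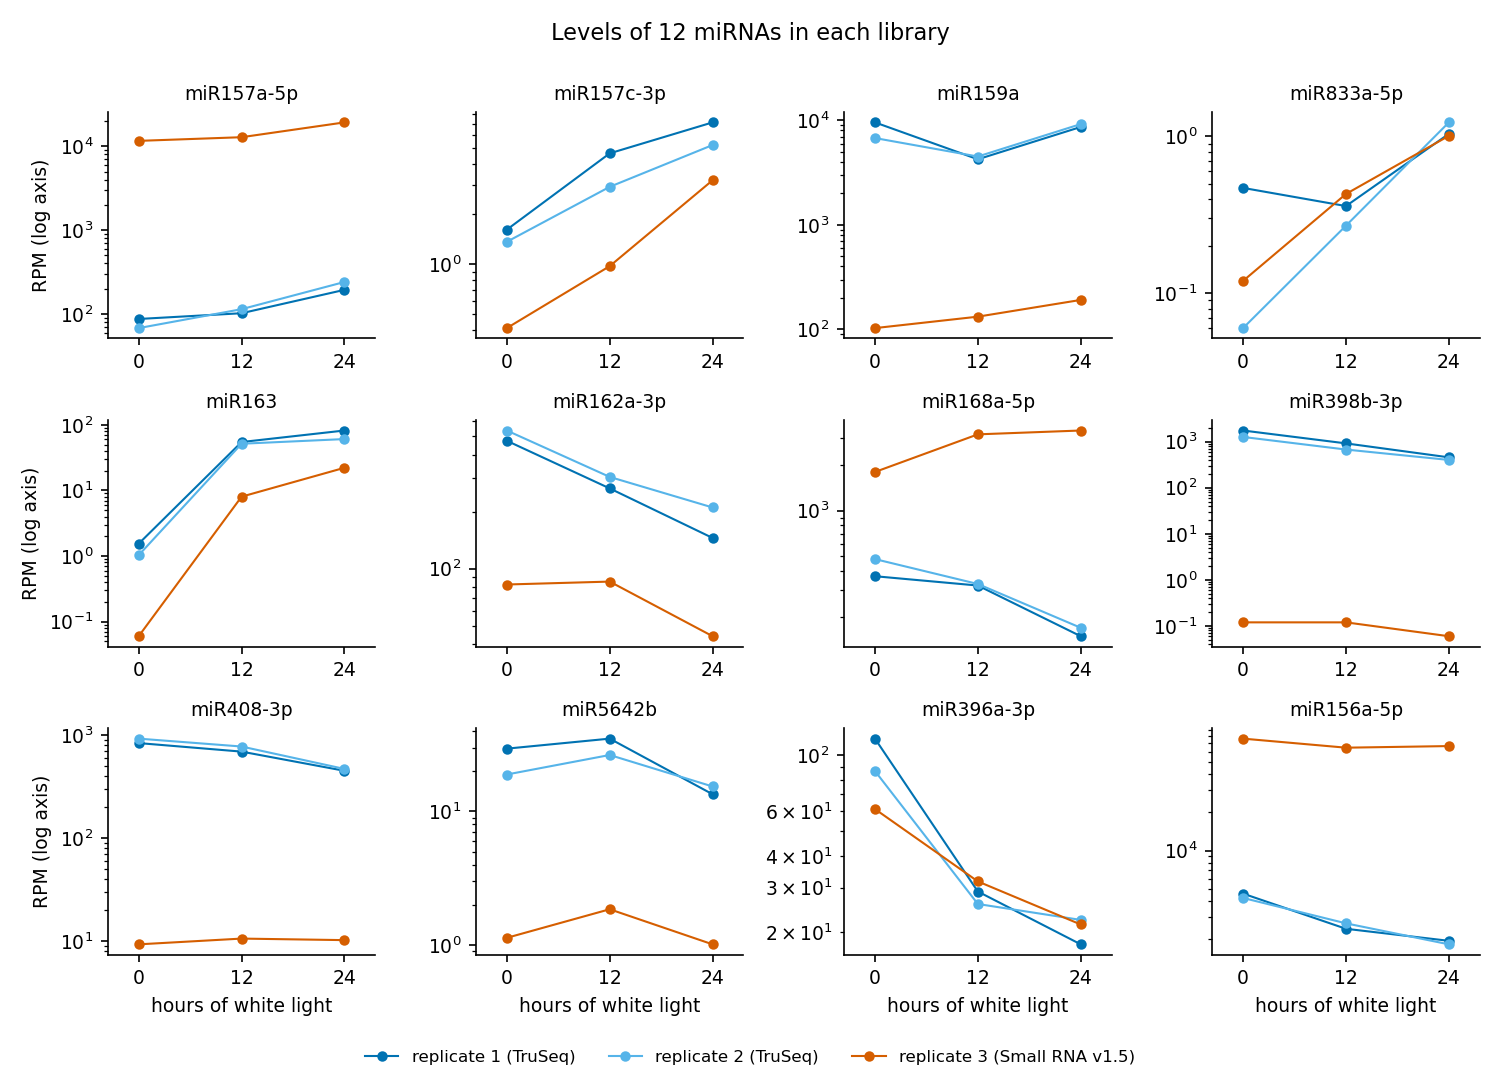
Level of 12 miRNAs in each library at 0, 12 and 24 h of white light, as RPM on a log axis that differs between panels, 1 line per replicate. miR157a-5p, miR157c-3p, miR159a, miR833a-5p and miR163 ended above their W12 h value in all 3 replicates, and replicate 3 lay apart from replicates 1 and 2 in most panels.

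The calls depended on replicate 3. Fitted on replicates 1 and 2 alone, which share the TruSeq kit, 23 of 207 miRNAs (11.1%) passed an adjusted p of 0.05, 6 higher (2.9%) and 17 lower (8.21%). These calls were not rescaled, and the median of all miRNAs in these replicates was itself below 0, as given above. Of the 14 *SPL* guide rows 8 passed. The 5 that fell were 1 sequence, that of miR156a-5p, and the 3 that rose were the miR157 guides, also 1 sequence. miR156a-5p was at 2409 and 2660 RPM at W12 h and 1936 and 1816 RPM at W24 h, against 64858 and 66788 RPM in replicate 3 (log2 change -0.43 in replicates 1 and 2, adjusted p = 0.0491, limma). In replicates 1 and 2, miR159a rose by 1.03 on the log2 scale (adjusted p = 0.00388, limma), and its paralog miR159c rose by the same size (1.03, adjusted p = 0.00653, limma) but went from 12.3 to 8.13 RPM in replicate 3.

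Several miRNAs that act on the silencing machinery fell in replicates 1 and 2. Of the 10 miR162, miR168 and miR403 rows, 5 passed, all lower and none of them miR403, against 8.21% lower among all miRNAs. These 5 rows were 3 sequences, those of miR162a-3p, miR168a-5p and miR168a-3p. miR168a-5p, which represses *AGO1*, was at 322 and 330 RPM at W12 h and 149.8 and 170.1 RPM at W24 h. Replicate 3 held about the same level at both times, 3161 and 3350 RPM. The fall in replicates 1 and 2 was -1.03 on the log2 scale (adjusted p = 0.0013, limma), and with replicate 3 included the change was -0.66 with an interval of -1.35 to 0.03 (adjusted p = 0.591, limma). The star strand miR168a-3p went the same way, by -0.93 in replicates 1 and 2 (adjusted p = 0.00157, limma) and from 95 to 123 RPM in replicate 3. Over all miRNAs, the change in replicate 3 differed from that in replicates 1 and 2 for 17 (8.21%), being higher for 13 (6.28%) and lower for 4 (1.93%). For both strands of miR168a the change in replicate 3 was above that in replicates 1 and 2, by 1.11 log2 units for miR168a-5p and 1.31 for miR168a-3p. Replicate 3 has 1 library per time point, so its own spread was not measured.

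Of the 9 rows of copper-responsive miRNAs, 3 fell in replicates 1 and 2, as 8.21% of all miRNAs did, and these 3 were 2 sequences. Among the rows that did not pass, miR398a-5p, miR398b-5p and miR398c-5p had log2 changes of 0.71, 0.35 and 0.41. The rows that fell were miR398b-3p with miR398c-3p (-0.88, adjusted p = 0.00137, limma) and miR408-3p (-0.67, adjusted p = 0.0119, limma), whose known targets are mRNAs of plantacyanin and laccases. miR408-3p was at 696 and 780.1 RPM at W12 h and 453 and 472 RPM at W24 h in replicates 1 and 2, and at 10.6 and 10.2 RPM in replicate 3. The other names that passed were miR162a-3p with miR162b-3p, miR165a-5p, miR5024-3p, miR5642b and miR840-5p, all lower, and miR833a-5p, higher. Of the 23, replicate 3 had the same sign for 11, among them miR398b-3p and miR398c-3p with 2 reads and 1 read. Since replicate 3 alone has the other kit, replicate and kit cannot be told apart in these differences.

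Within replicates 1 and 2 both periods of 12 h gave calls. From W0 h to W12 h 82 miRNAs (39.6%) passed, 13 higher and 69 lower. Of the 207 miRNAs, 13 passed in both periods in the same direction, 2 higher and 11 lower, and these 11 were 5 sequences. Most calls of each period were lower, and none were rescaled. The median of all miRNAs in these replicates was -0.46 in the first period and -0.25 in the second. The 2 higher were miR157c-5p and miR159c, and the lower ones were the 5 miR156 rows, miR162a-3p, miR162b-3p, miR398b-3p, miR398c-3p, miR840-5p and miR5024-3p. In the first 12 h, miR157a-5p and miR157b-5p, the same sequence as miR157c-5p, did not pass in these replicates (adjusted p = 0.109, limma). A rise in both periods can therefore not be assigned to the miR157 guide sequence. One miRNA, miR159a, turned back, falling by 0.88 in the first 12 h (adjusted p = 0.00251, limma) and rising by 1.03 in the second. The difference of its 2 changes was 1.91 log2 units in these replicates (adjusted p = 0.0055, limma) and 1.33 with replicate 3 (adjusted p = 0.692, limma).

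**Figure D3:**
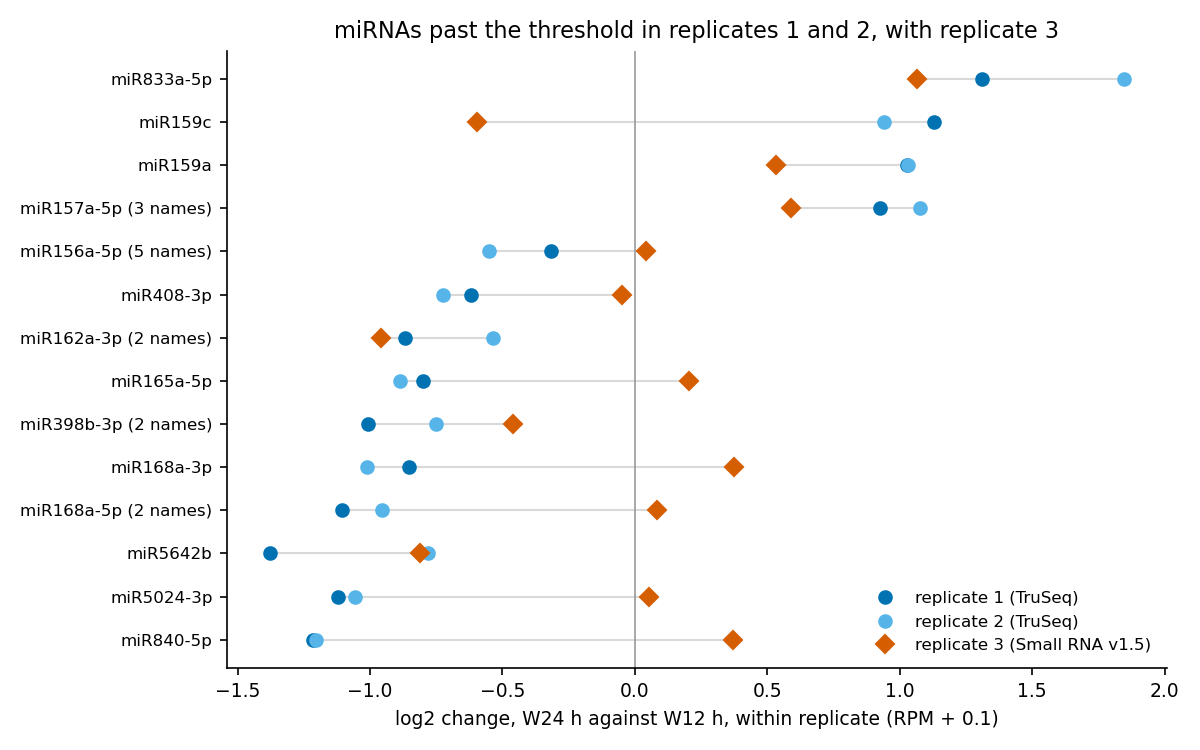
Log2 change from W12 h to W24 h within each replicate for the miRNAs past the threshold in replicates 1 and 2, 1 line per distinct sequence. Replicate 3 (diamonds) lies on the same side of 0 as replicates 1 and 2 for miR157a-5p, miR159a, miR833a-5p, miR162a-3p, miR398b-3p, miR408-3p and miR5642b and on the other side for the remaining sequences.

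The first 12 h are set beside the second 12 h in the next values. Both comparisons use the W12 h libraries, so an error at W12 h enters them with opposite signs. From W0 h to W12 h, 29 miRNAs (14%) passed the threshold, 3 higher (1.45%) and 26 lower (12.6%), which were 20 sequences. After rescaling by the median miRNA ratio the split was 9 higher and 11 lower, with 14 of the 29 among them, so the excess of lower miRNAs depends on the scaling. The count was 82 without replicate 3 and 1 without replicate 1 or without replicate 2. None of the 29 passed between W12 h and W24 h, so none was found to keep changing or to turn back at this threshold. All 29 also differed between W24 h and W0 h. That comparison uses the same W0 h libraries, so an error at W0 h enters both with the same sign, and it is no independent support.

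For the miRNAs that fell first, the estimates of the second 12 h were smaller and none passed. The median log2 change of the 26 was -0.98 in the first 12 h and -0.27 in the second, against -0.34 and -0.12 over all 207. The 95% interval of the later change lay within 2-fold for 18 of the 26, and for all 26 a 2-fold increase was outside it. miR396a-3p (chr2:4142331-4142351, minus strand, *MIR396a*), the star strand of a family that represses *GROWTH-REGULATING FACTOR* (*GRF*) mRNAs, was at 116, 86.4 and 61.2 RPM at W0 h, at 29.0, 25.9 and 31.8 RPM at W12 h and at 18, 22.4 and 21.5 RPM at W24 h. It was lower at each step in every replicate. The earlier change was -1.56 (adjusted p = 0.00264, limma) and the later change -0.49 with an interval of -1.11 to 0.13. miR390a-5p, which triggers *TAS3* phasiRNAs, went from 125, 131 and 531 RPM to 67.6, 67.3 and 337 RPM and then to 60.4, 58 and 347 RPM. Its later change was -0.11 with an interval of -0.60 to 0.37, a change of 2-fold being outside it. The guide miR403-3p, which represses *AGO2*, had log2 changes of -0.87 and then -0.06, and miR846-3p was the only one of the 26 with a later estimate above 0 (0.15, interval -0.48 to 0.77). miR395a, whose family represses sulfate assimilation and transport mRNAs, was at 0.27 to 0.52 RPM in all 6 libraries.

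The 3 miRNAs that rose first took different courses. miR163 (chr1:24884359-24884382, plus strand, *MIR163*), which represses methyltransferase mRNAs, was at 1.54, 1.03 and 0.06 RPM at W0 h, at 54.5, 51.4 and 8.02 RPM at W12 h and at 81.7, 60.5 and 22.1 RPM at W24 h. At these 3 times the level was higher each time in every replicate. The log2 change was already 5.48 from W0 h to W6 h, where miR163 was the only miRNA called (0.483%), and in replicate 3 the level at W6 h, 15.3 RPM, was above that at W12 h. The log2 change was 5.41 in the first 12 h (adjusted p = 3e-11, limma) and 0.76 in the second (interval 0.08 to 1.43, unadjusted p = 0.0298, adjusted p = 0.440, limma). It was the only miRNA of 207 (0.483%) whose 2 changes differed past the threshold, by -4.65 log2 units (adjusted p = 1e-05, limma). Without replicate 3 the later change of miR163 was 0.41 with an interval of -0.10 to 0.92. miR157c-3p rose by 1.20 in the first 12 h (adjusted p = 0.0325, limma) and its later estimate, 1.02, was nearly as large. miR5642a rose by 0.90 in the first 12 h (adjusted p = 0.0432, limma) and had an estimate of -0.14 in the second, but miR5642b, the same sequence, had 0.47 in the first 12 h (adjusted p = 0.254, limma), so this rise cannot be assigned to the sequence. At an unadjusted p under 0.05, 62 miRNAs (30%) differed from W0 h to W12 h, 11 higher (5.31%) and 51 lower (24.6%). Of these, miR163 and miR157c-3p were the 2 that also had such a p from W12 h to W24 h, in the same direction, and 0 turned back.

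**Figure D4:**
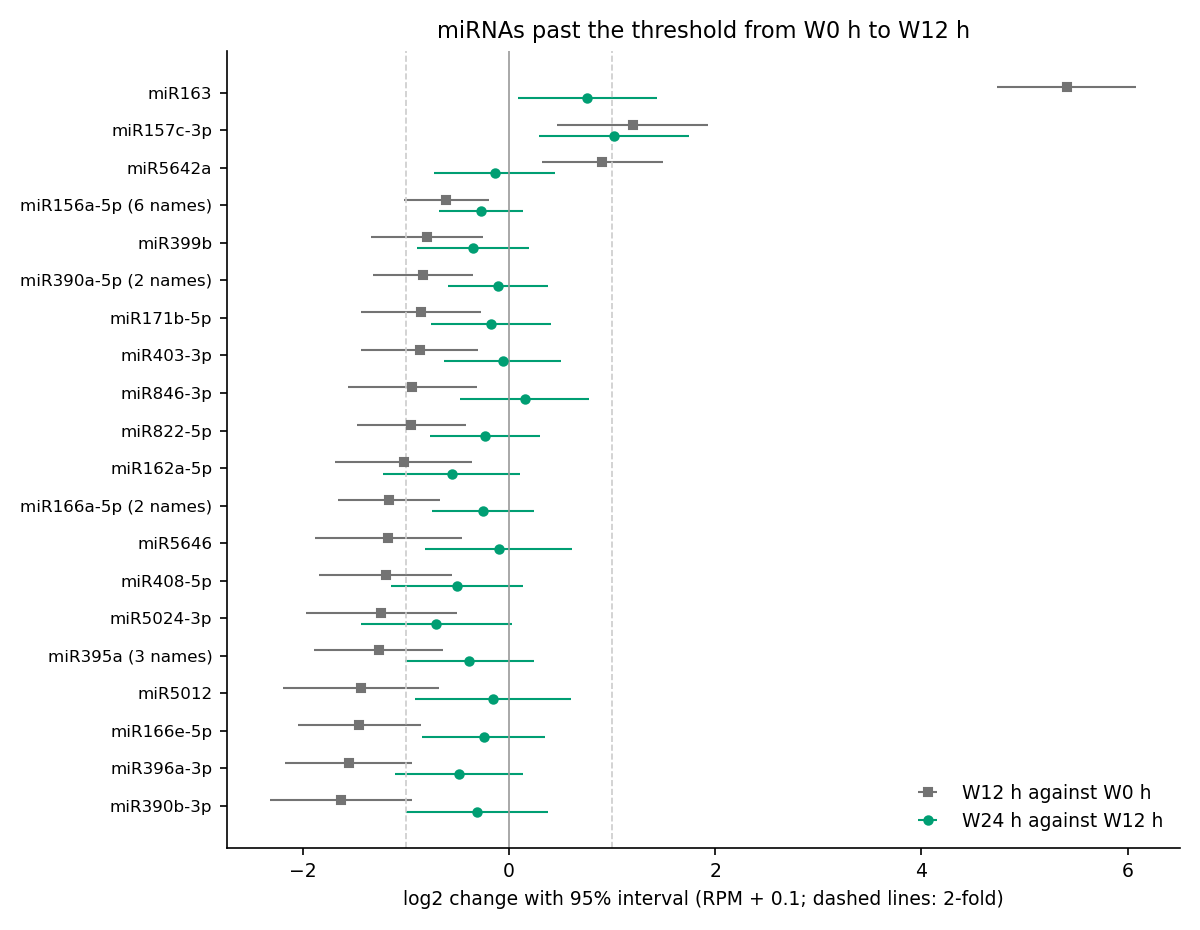
Log2 change with its 95% interval in the first 12 h (squares, W12 h against W0 h) and the second 12 h (circles, W24 h against W12 h) for the 20 sequences past the threshold in the first 12 h. All but miR163, miR157c-3p and miR846-3p have a later estimate below 0, and among the later intervals those of miR163 and miR157c-3p alone leave out 0.

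Against W0 h, 73 miRNAs (35.3%) differed at W24 h, 13 higher (6.28%) and 60 lower (29%), which included the 29 above and 44 others. These calls were not rescaled. The median log2 miRNA ratio of W24 h to W0 h was -0.71, -0.49 and 0.04 in replicates 1, 2 and 3. Whether the excess of lower miRNAs depends on the scaling was not tested for this comparison. miR157a-5p, miR833a-5p, miR162a-3p and miR398b-3p were among those 44, with log2 changes against W0 h of 1.24, 2.13, -1.32 and -1.35. In 9 of the 44 the unadjusted p of the second 12 h alone was under 0.05.

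Grouped by the mRNAs they act on, the nutrient they respond to or a link to HY5, the families had later medians between -0.53 and 0.35. The lowest was that of the 10 rows of miR162, miR168 and miR403 (-0.53), followed by copper (-0.42 over 9 rows) and sulfate and phosphate (-0.39 over 10 rows). The 10 sulfate and phosphate rows were 5 sequences. Of these rows, 8 were lower in all 3 replicates, against 38 of all 207 miRNAs. After rescaling by the median ratio 4 were, against 37 of 207, and none of the 10 had an unadjusted p under 0.05. The 14 *SPL* guide rows had a median of -0.27, with 3 higher at an unadjusted p under 0.05 (the miR157 guides) and 0 lower. Their star strands had a median of 0.35 over 7 rows, which was -0.15 and -0.34 in replicates 1 and 2 and 1.56 in replicate 3. miR156f-3p, the most abundant of these stars, was at 741, 422 and 32.9 RPM at W12 h and 516, 304 and 69.4 RPM at W24 h. The medians of *GRF* (-0.31, 4 rows), *TAS* triggers (-0.21, 6 rows), NF-YA (-0.20, 13 rows), *HAM* (-0.18, 6 rows), PPR (-0.13, 6 rows), auxin (-0.12, 12 rows) and HY5-linked miRNAs (-0.09, 4 rows) compare with -0.12 over all miRNAs. The HY5-linked rows were miR402, miR775, miR858a and miR858b, whose accumulation the paper describes as needing the transcription factor HY5. It names miR408 and miR156d as well, but these were counted with copper and the *SPL* guides. The MYB and TCP rows had a median of 0.28 over 6 rows.

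For several abundant miRNAs the data limit any change to less than 2-fold. miR166a-3p, which represses class III homeodomain-leucine zipper (HD-ZIP III) mRNAs, was at 43043, 48004 and 3683 RPM at W12 h and 37242, 35251 and 5112 RPM at W24 h (log2 change -0.06, interval -0.44 to 0.32). The miR166a-3p mean joined opposite directions, -0.21, -0.45 and 0.47 in replicates 1, 2 and 3. Without replicate 3 its change was -0.33 (interval -0.55 to -0.10). The median of the 13 HD-ZIP III rows was -0.05 and turned to 0.00 after rescaling. The log2 change was 0.04 for miR165a-3p (interval -0.36 to 0.44), 0.12 for miR161.1, which represses PPR mRNAs (interval -0.27 to 0.51), and -0.28 for miR158a-3p (interval -0.78 to 0.22). For these 4 miRNAs, a 2-fold change in either direction lay outside the interval. The *ARF*-regulating miR167d (-0.14), *GRF*-regulating miR396a-5p (0.23) and *TCP*-regulating miR319a (-0.14) had intervals within 2-fold as well. So had *NAC*-regulating miR164b-5p (-0.10), but it was abundant in replicate 3 only. The 3 *NAC* rows together held 1.59 and 2.46 RPM at W12 h in replicates 1 and 2. Without replicate 3 the miR164b-5p interval was -1.10 to 0.57, past 2-fold.

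The 2 arms of a hairpin did not always move together. Of 41 hairpins with both arms listed, 21 had arm estimates of opposite sign. The 5p arm gained on the 3p arm in all 3 replicates in 7 and lost in all 3 in 8. These counts were not tested against random signs, and hairpins that share sequences, such as miR398b and miR398c, count more than once. The miR398b hairpin, chosen after its values were seen, was one of the 7. miR398b-5p went from 4.87, 4.28 and 0.33 RPM to 5.14, 6.63 and 1.57 RPM (log2 change 0.88, unadjusted p = 0.030, adjusted p = 0.440, limma), while miR398b-3p was lower in replicates 1 and 2 and held 2 reads and 1 read in replicate 3, as given above. The ratio of 5p to 3p was higher at W24 h by 1.08 and 1.37 log2 units in replicates 1 and 2, and the 2.42 of replicate 3 rests on those reads. Both arms of miR398b and miR398c have the same mature sequence, so the 2 hairpins cannot be told apart. For miR396a the guide miR396a-5p gained on the star by 0.91, 0.35 and 0.89 log2 units.

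No phasiRNA passed the threshold between W12 h and W24 h. Of the 58, 0 (0%) had an adjusted p under 0.05 with limma, edgeR or DESeq2, and at an unadjusted p under 0.05 with limma 0 were higher and 2 lower (3.45%). The median log2 change was 0.02, and -0.28, -0.08 and 0.13 in replicates 1, 2 and 3. The spread was wider than for miRNAs: the interval of the change lay within 2-fold for 14 of the 58 (24.1%). Their summed level was 243, 205 and 10856 RPM at W12 h and 212, 223 and 11408 RPM at W24 h (exact sign-flip permutation test, 2-sided p = 0.75, n = 3 pairs, smallest possible p 0.25), so replicate 3 held most of the phasiRNA reads. In the first 12 h 0 of 58 (0%) passed, with 14 lower at an unadjusted p under 0.05.

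Many phasiRNAs were listed at 0 in some libraries. Of the 58, 37 were above 0 in all 6 libraries. In replicate 1, 8 went from above 0 at W12 h to 0 at W24 h and 2 the other way. In replicate 2, 4 went to 0 and 9 from 0 to a value above 0, and 7 of these 9 came from *TAS1c*. phasiR_44, the most abundant phasiRNA of *TAS1c*, was at 3.08, 0 and 360.4 RPM at W12 h and 2.01, 2.52 and 474 RPM at W24 h. phasiR_5 of the same locus, chosen after its values were seen, was at 0, 0 and 1.70 RPM at W12 h and 3.43, 1.72 and 2.36 RPM at W24 h, and at W0 h it had been at 3.68, 0.06 and 1.16 RPM. phasiR_53, the most abundant of *TAS1a*, was listed at 0, 0 and 5731 RPM at W12 h and at 0, 9.51 and 5423 RPM at W24 h. phasiR_57 of *TAS3*, the locus whose phasiRNAs repress auxin response factors, was at 4.01, 0 and 97.2 RPM and then at 0, 3.93 and 107 RPM. In these 4 phasiRNAs the values of 0 fell in replicates 1 and 2, and the replicate 3 values differed by less than 2-fold between the times.

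Other loci had fewer zeros. phasiR_52 of *TAS2* was at 18.7, 17.4 and 202 RPM at W12 h and 18.6, 16.3 and 239 RPM at W24 h. The 9 *TAS2* rows had a median of -0.31 and the 12 *TAS1c* rows one of 0.38, where the zeros of replicate 2 enter. The siR255 phasiRNA, 1 sequence that matches *TAS1a*, *TAS1b* and *TAS1c*, was at 1.5, 1.83 and 63.3 RPM at W12 h and 1.56, 3.19 and 108 RPM at W24 h (log2 change 0.53, adjusted p = 0.995, limma).

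From the PPR loci came 21 rows of 10 sequences, and 9 of these rows were lower in all 3 replicates, against 11 of all 58 phasiRNAs. These 11 rows were only 6 sequences, 1 row each being from *TAS1b* and *TAS2*, so the count for the PPR loci holds repeated sequences. phasiR_13, with the same sequence as phasiR_14, had the lowest p. It was at 0.29, 0.48 and 0.97 RPM at W12 h and at 0, 0.31 and 0.28 RPM at W24 h, a few reads in each library (log2 change -1.31, interval -2.50 to -0.13, adjusted p = 0.944, limma). Its 21 nt match *AT1G62910* and *AT1G63150*. phasiR_27 went from 1.5, 1.09 and 209 RPM to 0.82, 0.68 and 185 RPM (log2 change -0.53). Against W0 h, 4 phasiRNAs of 58 (6.9%) were lower at W24 h, namely phasiR_13 and phasiR_14 (log2 change -2.46, adjusted p = 0.0126, limma) and phasiR_27 and phasiR_31 (log2 change -1.65, adjusted p = 0.0126, limma). phasiR_25 was at 12.2, 14 and 116 RPM and then at 10.6, 13 and 110.2 RPM (log2 change -0.13, interval -0.67 to 0.41).

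**Figure D5:**
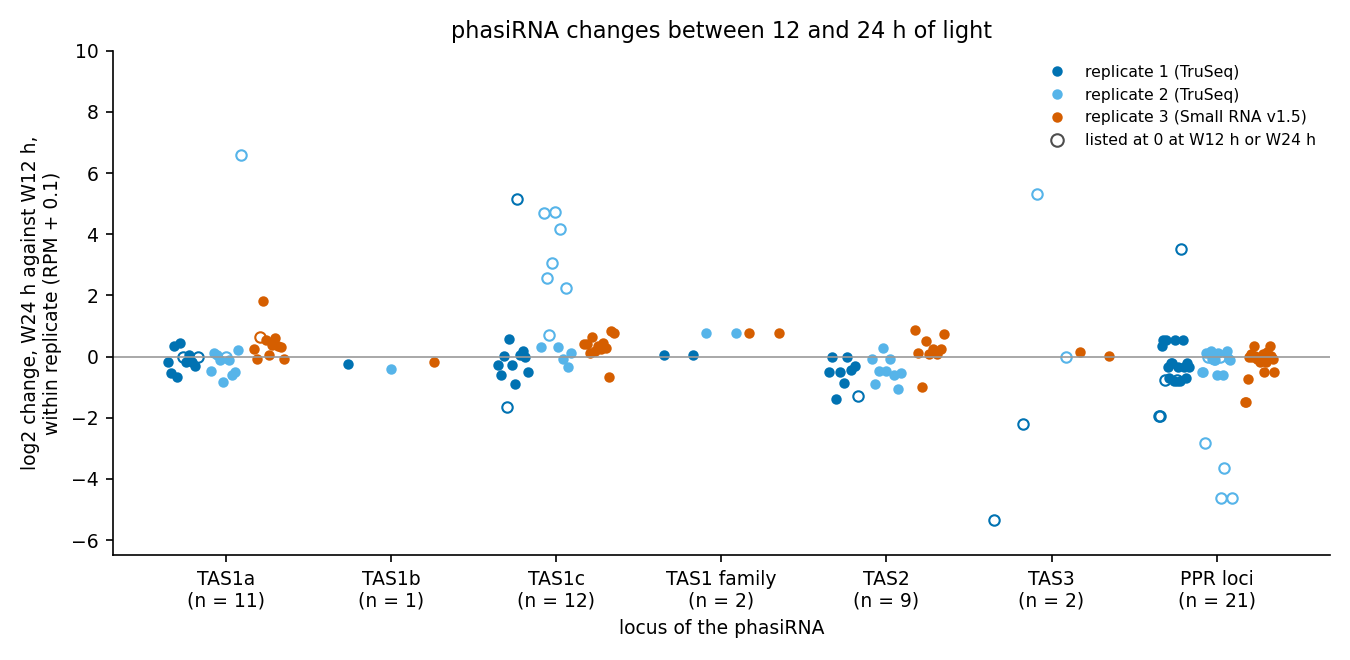
Log2 change from W12 h to W24 h within each replicate for the 58 phasiRNAs, grouped by the locus their sequence matches. Open circles are values for which the phasiRNA was listed at 0 at W12 h or W24 h, and the changes farthest from 0 are such values.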

How the data were processed

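The authors mapped adaptor-trimmed reads to TAIR10 with Bowtie 1.0.0 and deposited RPM values per sRNA. The Methods state that reads matching several family members were shared out equally. RPM of miRNAs and phasiRNAs are on mapped 20–24 nt reads, a total inferred from whole-read steps: 100% of phasiRNA and 60.6% of miRNA values came out whole within 0.1 read. Columns not used numbered 0. The degradome files were not used here.

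The 18 libraries were fitted with limma 3.58.1 in R 4.3.3 (log2 of RPM + 0.1, time point and replicate as terms, eBayes with a trend), with Benjamini-Hochberg adjustment within each class and a threshold of 0.05. Replicate numbers were taken as pairs. Deviations from the time point means correlated at 0.953, 0.937 and 0.979 between W12 h and W24 h in replicates 1, 2 and 3 (207 miRNAs). Since replicate 3 lay apart from the others at both times, these values cannot show pairing of replicates 1 and 2. Within the TruSeq kit, the replicate 1 minus 2 difference correlated at 0.279 between the times. The kit difference was fitted with a kit by time term, in which the spread came from replicates 1 and 2 alone. Reads recovered from RPM were rounded for edgeR 4.0.16 and DESeq2 1.42.0. The pipeline was tested on simulated data.

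Members, families and tests were chosen with earlier results of these data known. Text names the 5 lowest-p sRNAs per class and direction, those changing in both periods of 12 h, the 3 most abundant sequences of a family, the most abundant phasiRNA of a locus, and miR163, miR168a-5p, miR396a-3p and miR157c-3p. Other names, such as miR159c, miR408-3p, miR846-3p and the calls of replicates 1 and 2, were chosen after their values were seen. Others tried were pseudocounts of 1 and 0.01 RPM, no block, other scalings, a minimum mean of 10 (miRNA) or 1 RPM (phasiRNA), no trend, the 6 libraries alone, each replicate left out, a one-sample test, and each sequence as 1 item. Figures used matplotlib 3.10.9.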

Additional observations from a re-analysis of the deposited data

Results flagged for a closer look

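For 6 of the miRNAs picked by the naming rule, the kit fit flagged a different change in replicate 3 than in replicates 1 and 2. All 3 replicates split by sign along the same line. Replicate 3 has 1 library per time point, so its own spread was not measured. The difference, replicate 3 minus the mean of replicates 1 and 2 on the log2 scale, was 1.88 for miR156c-3p, 1.58 for miR156f-3p, 0.80 for miR166a-3p, 1.11 for miR168a-5p, 1.31 for miR168a-3p and -2.31 for miR8175. miR8175 was at 383, 342 and 3329 RPM at W12 h and 394, 469.8 and 798.8 RPM at W24 h in replicates 1, 2 and 3. For miR159c, named for its values and not by that rule, the difference was -1.63. The kit and replicate 3 cannot be told apart.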

How the results depend on the processing

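For the 63 sRNAs named or followed, 971 of 990 alternative values were labelled the same, 18 passed the threshold, 1 moved, and 0 reversed. A change of sign counted as reversed only where the main unadjusted p was under 0.05. Elsewhere it counted as the same if the shift was below the SD of the changes within replicates. The 971 therefore include changes of sign, such as miR8175 at -0.52 in the main fit and 0.25 without replicate 3. From W12 h to W24 h, higher miRNAs numbered 1 with a pseudocount of 1 RPM (miR833a-5p), 4 with the W12 h and W24 h libraries alone, 3 with DESeq2 and 0 to 6 with 1 replicate left out, and lower miRNAs 3 with those libraries alone and 0 to 17 with 1 replicate left out. Calls in both periods of 12 h in the same direction were 3 with DESeq2 and 0 to 13 with 1 replicate left out, and in opposite directions 0 to 1. The 2 changes differed for 2 miRNAs in the one-sample test (miR390a-5p and miR390b-5p, with miR163 lost at an adjusted p of 0.27), for 2 with edgeR and 2 with DESeq2 (miR163 and miR5642b in each) and for 1 to 3 with 1 replicate left out. Without the replicate block, that is without the pairing, they differed for 0, and 0 miRNAs passed in either period. The median phasiRNA change was -0.20 with DESeq2. Calls from W0 h to W12 h numbered 12 with each sequence as 1 item, 13 with edgeR, 14 with both classes adjusted together, 0 in the one-sample test, and 1, 1 and 82 without replicates 1, 2 and 3, against 29. The causes were not tested. In simulated data for W24 h against W12 h with 207 miRNAs, 40 of them changed, limma called 60% at a log2 change of 1 and 90% at 1.5. Smaller changes were not simulated.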
